A study of Mus musculus with 6 samples.

Results

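The DNA replication, mitosis and repair genes described here are 58 of the 2295 genes that carry a symbol of their own in a deposited table of 4-fold differences between MSC-1 cells and primary mouse Sertoli cells. They were taken by words in the gene titles, such as minichromosome, kinesin, cyclin, condensin or Fanconi, which 90 probe sets matched. Of these, 6 belong to Ccnd2, Cdkn2a, Cdkn1b and Cdc25b, which the rule leaves out, and 3 carry several symbols and name no gene, which leaves 81 probe sets of 58 genes. Among the genes left out, Ccnd2 was higher in primary Sertoli cells and the other three in MSC-1 cells, so a count of sides over the 58 is not one over all genes whose titles match. The prostacyclin synthase gene Ptgis came in only because its title holds the letters of cyclin.

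The study compared aggregated cells of the MSC-1 Sertoli cell line (3 arrays) with aggregated primary Sertoli cells of C57BL/6 x 129 mice (3 arrays), to find genes that matter for the survival and immune protection of transplanted Sertoli cells. MSC-1 comes from a testis tumour of mice in which a Sertoli cell promoter drove the SV40 large T antigen, and it is 1 line. Aggregates of both kinds formed over 48 h in Ham's F10 medium that held 10% serum. The labels give the donors' age as 10 to 20 days in one field and as 19 to 20 days in another, and do not say whether the samples of a group came from separate cultures or animals, so the p-values measure only the spread between these arrays.

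Every dividing cell copies its DNA once and then pulls the copies apart. Origins are licensed in G1 when the MCM helicase is loaded on DNA, polymerases copy the strands in S phase, and in mitosis the kinetochores built on centromeres tie chromosomes to the spindle. Many of these genes are switched on together by E2F factors before S phase, or through the CHR element before mitosis, once the retinoblastoma family of pocket proteins releases them. The large T antigen is known for binding those pocket proteins, while Sertoli cells stop dividing before puberty. Spermatocytes use their own versions of several cyclins, kinases and cohesins for meiosis.

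The promoters of 6 of the genes are shown because they hold, or lack, the E2F, CHR and CCAAT letters by which replication and mitosis genes are known to be controlled together. Mcm6 and Pola1 are examples for replication, and Cenpa and Ccnb1 for mitosis. Ccna1 and Aurkc are examples from the genes that were higher in primary Sertoli cells. They do not stand for all genes of that side, as Ccnb3 and Kif27 hold CHR letters within 250 bases before the start. Each line gives the 150 bases before the annotated start, 5′ to 3′ on the gene's strand, from RefSeq on GRCm38.p6. Capitals mark every match, on either strand, to the E2F letters TTTCCCGC or TTTGGCGC, the CHR letters TTTGAA or TTTAAA, or CCAAT.
Mcm6, chr1:128359706-128359855 (- strand): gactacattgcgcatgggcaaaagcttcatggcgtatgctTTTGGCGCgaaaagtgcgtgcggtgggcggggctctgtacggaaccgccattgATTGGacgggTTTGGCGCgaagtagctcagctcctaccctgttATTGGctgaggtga
Pola1, chrX:93632156-93632305 (- strand): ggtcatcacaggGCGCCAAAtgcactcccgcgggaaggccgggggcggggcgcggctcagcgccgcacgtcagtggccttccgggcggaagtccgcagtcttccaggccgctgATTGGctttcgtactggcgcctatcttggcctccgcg
Cenpa, chr5:30666736-30666885 (+ strand): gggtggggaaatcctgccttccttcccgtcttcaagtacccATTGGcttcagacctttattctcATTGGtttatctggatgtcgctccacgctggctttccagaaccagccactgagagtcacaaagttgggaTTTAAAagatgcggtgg
Ccnb1, chr13:100786487-100786636 (- strand): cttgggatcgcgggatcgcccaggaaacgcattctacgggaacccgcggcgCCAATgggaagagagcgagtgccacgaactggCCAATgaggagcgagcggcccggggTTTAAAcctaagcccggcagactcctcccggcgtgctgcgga
Ccna1, chr3:55055056-55055205 (- strand): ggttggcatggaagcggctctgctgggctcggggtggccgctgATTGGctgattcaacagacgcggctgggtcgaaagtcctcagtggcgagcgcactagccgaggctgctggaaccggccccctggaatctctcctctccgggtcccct
Aurkc, chr7:6995235-6995384 (+ strand): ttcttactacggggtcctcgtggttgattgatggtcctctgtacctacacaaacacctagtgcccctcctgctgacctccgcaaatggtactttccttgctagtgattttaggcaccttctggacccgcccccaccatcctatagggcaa
In these 150 bases Mcm6 holds the E2F letters at 110 and at 47 bases before the start, and Pola1 holds them on the other strand at 138. Cenpa and Ccnb1 hold the CHR letters at 17 and at 42 bases before the start, each behind a pair of CCAAT boxes. Ccna1 holds a single CCAAT box on the other strand, and the Aurkc stretch has no match. Past its start, Aurkc holds CCAAT on the other strand.

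The same letters were counted in the whole windows, 250 bases before to 50 after the start, which the RefSeq table holds for 49 of the 58 genes. An E2F match was found in 12 of 35 windows (34.3%) of the genes higher in MSC-1 cells and in 0 of 19 windows of the genes higher in primary Sertoli cells. The share was 3.60% of the windows of genes in the 4-fold table and 1.56% of all windows of the RefSeq table. Mcm3, Mcm5, Mcm6, Mcm8, Cdt1, Cdc6, Pola1, Pole2 and Rfc3 were among the 12, so that replication genes made up most of them, with Cenpm, Ncapg and Ncapg2. A CHR match stood in 42.9% of windows of the MSC-1 side, 10.5% of those of the primary side, 23.1% of the 4-fold table's and 27.6% of all windows. The CCAAT letters stood in 71.4% of windows of the MSC-1 side, 42.1% of the primary side, 40.3% of the 4-fold table's and 37.4% of all. Of the 14 genes of the primary side, 5 have several windows, which were counted separately. Counted by gene, 0 of the 14 had an E2F match, 2 a CHR match and 7 a CCAAT match. With the 50 bases after the start left out, the E2F share was 17.1% of windows of the MSC-1 side, against 2.56% of the 4-fold table's and 1.30% of all. The CHR share was then 31.4% of the MSC-1 side, against 20.9% of the 4-fold table's and 25.2% of all, and the CCAAT share 65.7%, against 37.5% and 33.8%. These are counts of letters with no test, and a match is not a shown binding site.

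**Figure D1:**
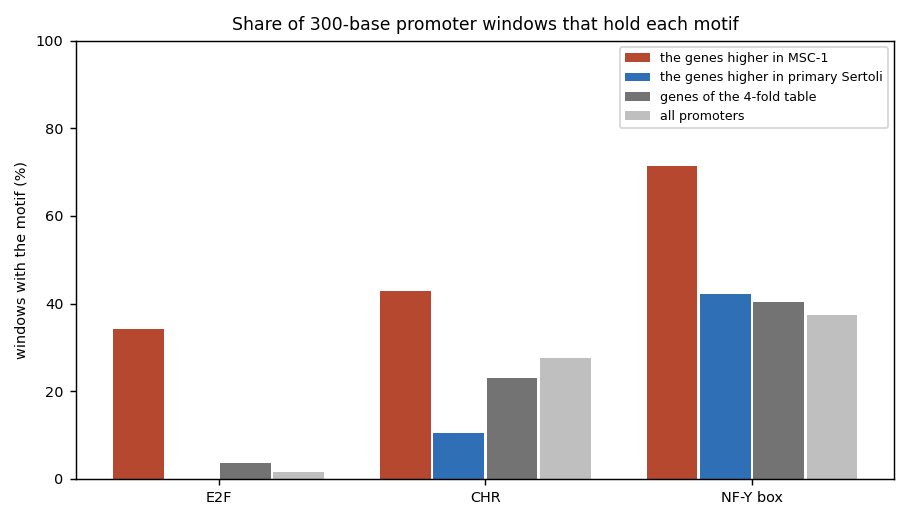
Share of 300-base promoter windows (vertical axis, percent) that hold an E2F, CHR or CCAAT (NF-Y box) match, for the genes higher in MSC-1 cells, the genes higher in primary Sertoli cells, all genes of the 4-fold table and all promoters. The E2F bars stand at 34.3%, 0%, 3.60% and 1.56%.

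The values are linear array signals, 1 per probe set and array. Each gene is given by the probe set with the highest mean level among its probe sets in the 4-fold table. Other probe sets of a gene, which may differ less, could not be chosen. Differences are MSC-1 minus primary Sertoli on the log2(signal + 1) scale, fitted with limma over 45037 probe sets. The ± values of differences are moderated standard errors (SE) of limma, for which each variance borrows from the other probe sets. Median signals of the arrays ran from 23.0 to 29.8. Over all probe sets, log2 signals correlated at 0.938 to 0.959 between arrays of a group and at 0.796 to 0.805 between groups. The arrays settle the direction of the authors' folds: all 1296 negative folds had the higher mean in MSC-1 cells and all 1902 positive ones in primary Sertoli cells. On the folds in the authors' deposited table, the genes nearest to the 4-fold limit were Cenpe at 4.17, Ncapg at 4.26 and Mcm8 at 4.27, all higher in MSC-1 cells. Genes just outside the limit are not analysed here, because probe sets outside that table carry no gene names in the files used.

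Of the 58 genes, 42 were higher in MSC-1 cells and 16 in primary Sertoli cells. All 58 passed an adjusted p of 0.05 in limma (Benjamini-Hochberg over all probe sets, adjusted p from 9.47e-08 to 0.00217), beside 40.4% of all probe sets. The 3 arrays of one group did not overlap those of the other for any of the 58 genes, beside 51.2% of all probe sets. The genes were selected at 4-fold on these same arrays, so neither count is evidence about them. The median difference was 2.59 for the 42 genes and -4.28 for the 16 genes, against 0.04 over all probe sets. Of the 58 genes 72.4% were higher in MSC-1 cells, against 38.0% of all 2295 genes in the table. RNA came from bulk cells, in which fewer cells of a type and less RNA per cell cannot be told apart.

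**Figure D2:**
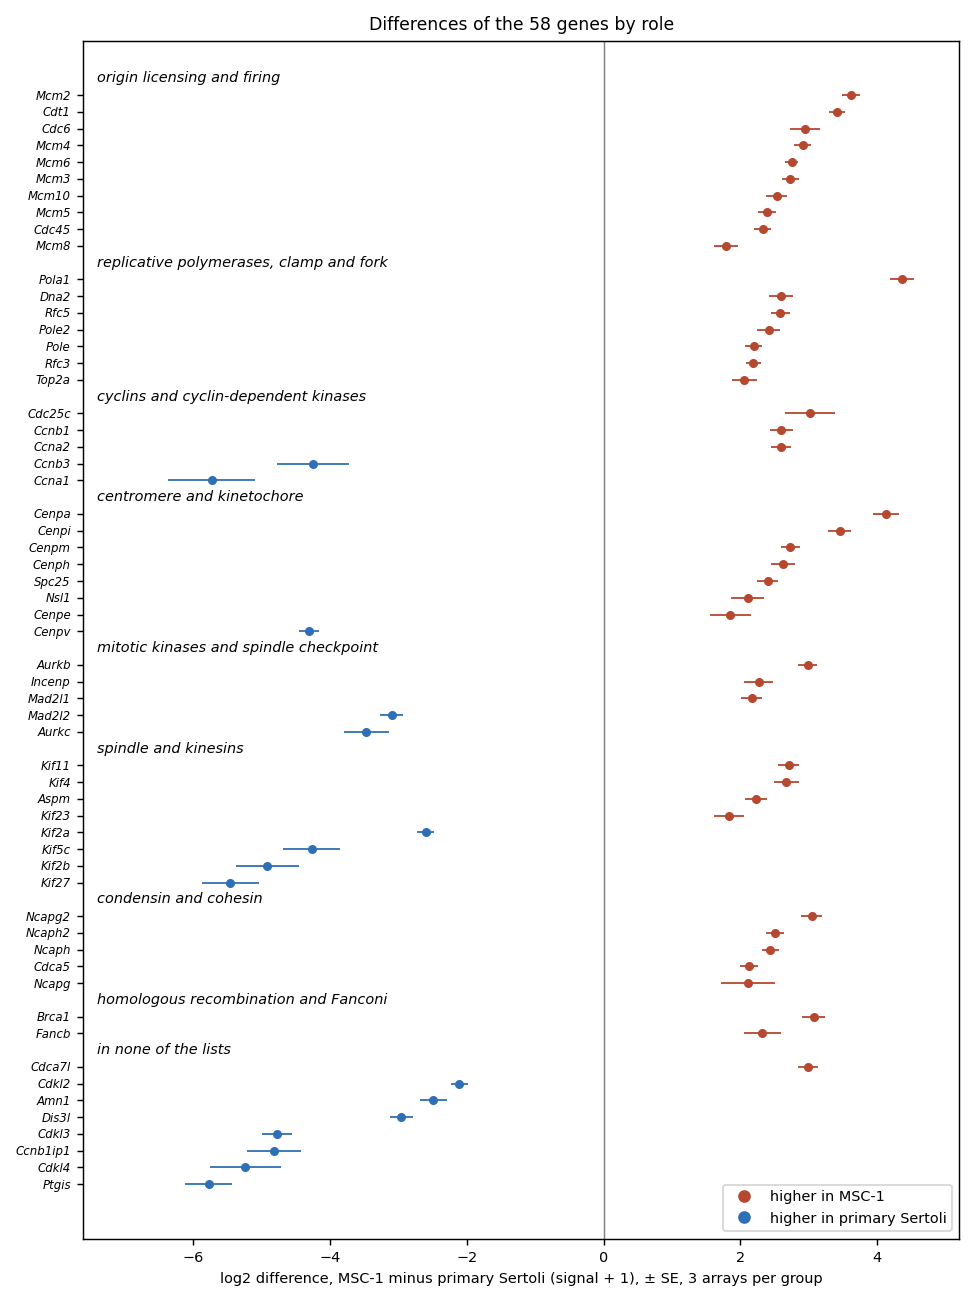
Fitted log2 difference (MSC-1 minus primary Sertoli, horizontal axis) of each of the 58 genes, grouped by role, with its moderated standard error from limma (3 arrays per group). Genes of origin licensing, polymerases, condensin and Fanconi repair all lie right of 0, from 1.79 to 4.36, and the genes left of 0 are cyclins, Aurkc, Mad2l2, kinesins, Cenpv and genes in none of the lists.

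All 10 genes of origin licensing and firing were higher in MSC-1 cells. Cdt1, which brings the MCM helicase to origins, had signals of 1967, 2003 and 1914 in MSC-1 cells, against 207, 187 and 161 in primary Sertoli cells. Its difference was 3.41 ± 0.12 (moderated SE, n = 3 each), and all 3 MSC-1 arrays stood far above the primary ones. Cdc6, its partner in loading the helicase, had signals of 433, 415 and 388 in MSC-1 cells, against 59.3, 66.4 and 37 in primary Sertoli cells. The lowest of the primary values for Cdc6 was on the third array, and the difference was 2.94 ± 0.21. Mcm2, a subunit of the helicase ring, had signals of 1453, 1127 and 1359 in MSC-1 cells, against 116, 97 and 105 in primary Sertoli cells. This was the largest difference of the group at 3.61 ± 0.13, but the gene's other probe set gave 2.25. Mcm4, another ring subunit, had signals of 1757, 1441 and 1416 in MSC-1 cells, against 225, 199 and 187 in primary Sertoli cells, with a difference of 2.91 ± 0.13 and no overlap between the groups. The other 6 genes had differences of 1.79 to 2.75. They were the ring subunits Mcm3, Mcm5 and Mcm6, the fork factors Mcm10 and Cdc45, and Mcm8, a relative of the ring that works in recombination and had the smallest difference.

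The 7 genes of polymerases, clamp loading and the fork were also higher in MSC-1 cells. Pola1, the catalytic subunit of the polymerase that starts each new strand, had signals of 904, 805 and 827 in MSC-1 cells, against 48.3, 42.3 and 31.6 in primary Sertoli cells. Its difference of 4.36 ± 0.17 was the largest of the 42 genes. Dna2, a nuclease and helicase that trims the flaps of Okazaki fragments, had signals of 375, 268 and 371 in MSC-1 cells, against 47.6, 57.2 and 59.8 in primary Sertoli cells. The second MSC-1 array was the lowest of its group, and the difference was 2.59 ± 0.18. Rfc5, a subunit of the clamp loader, had signals of 718, 656 and 679 in MSC-1 cells, against 123, 124 and 95.5 in primary Sertoli cells, a difference of 2.58 ± 0.14. Pole2, a subunit of the leading-strand polymerase epsilon, had signals of 532, 431 and 530.2 in MSC-1 cells, against 108, 97.3 and 74.5 in primary Sertoli cells, a difference of 2.42 ± 0.17. In both genes the third primary array was the lowest of all. The catalytic subunit gene Pole, the clamp loader gene Rfc3 and Top2a, which untangles copied chromosomes, had differences of 2.06 to 2.19.

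**Figure D3:**
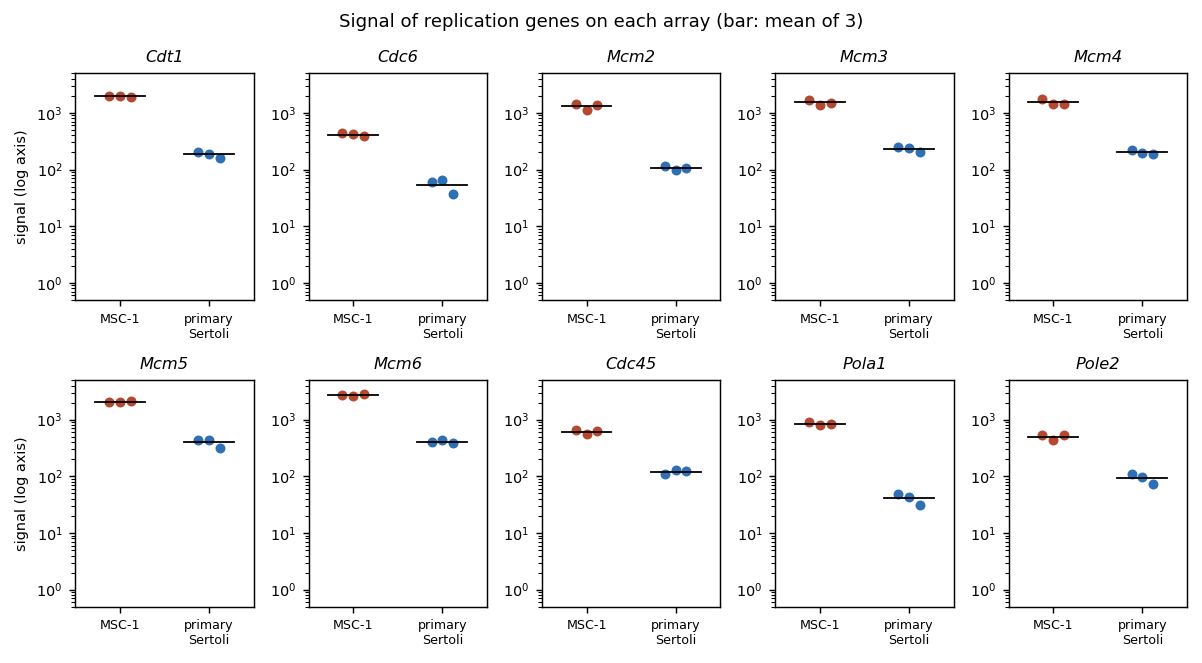
Array signal (vertical log axis) of 10 replication genes in MSC-1 cells (left) and primary Sertoli cells (right), with points for the 3 arrays of a group and a bar at their mean. In each panel the MSC-1 points lie together above all primary points, as for Pola1 with 805 to 904 in MSC-1 cells against 31.6 to 48.3 in primary Sertoli cells.

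Cyclin genes divided by family member. Cdc25c, a phosphatase that switches on the mitotic kinase, had signals of 145, 106 and 117 in MSC-1 cells, against 7.48, 17.9 and 20.7 in primary Sertoli cells. Its difference was 3.02 ± 0.37, and a second probe set gave 4.78. Ccnb1, the cyclin of mitotic entry, had signals of 638, 675 and 726 in MSC-1 cells, against 125, 128 and 85.8 in primary Sertoli cells, with a difference of 2.60 ± 0.17. Ccna2, the cyclin of S phase and mitosis in somatic cells, had signals of 1028, 869 and 1010 in MSC-1 cells, against 146, 197 and 141 in primary Sertoli cells, with a difference of 2.59 ± 0.15. Their relatives lay on the other side. Ccna1, the A cyclin of male meiosis, had signals of 0.607, 4.95 and 10.1 in MSC-1 cells, against 162, 274 and 352 in primary Sertoli cells. Its difference was -5.73 ± 0.64, and the first primary array was the lowest of its group. Ccnb3, a B cyclin known from meiosis, had signals of 4.71, 3.18 and 0.814 in MSC-1 cells, against 42, 96.7 and 69.6 in primary Sertoli cells, with a difference of -4.25 ± 0.53. The MSC-1 signals of both genes lay under the array median of 23.9, where single readings differ by several fold, and no detection calls were used.

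Of the centromere and kinetochore genes, 7 were higher in MSC-1 cells and 1 in primary Sertoli cells. Cenpa, the histone variant that marks centromeres, had signals of 1116, 947 and 1040 in MSC-1 cells, against 70.6, 64.8 and 42.6 in primary Sertoli cells. The difference was 4.13 ± 0.19, and its second probe set gave 3.99. Cenpi, of the inner kinetochore, had signals of 524, 387 and 446 in MSC-1 cells, against 41, 43.5 and 36.4 in primary Sertoli cells, with a difference of 3.45 ± 0.16. Cenpm, of the same layer, had signals of 311, 305 and 302 in MSC-1 cells, against 46.4, 48 and 41.6 in primary Sertoli cells, with a difference of 2.73 ± 0.14. The arrays of each group spread little. Cenph, Spc25 of the microtubule-binding NDC80 complex, Nsl1 of the MIS12 complex and the kinetochore motor gene Cenpe had differences of 1.85 to 2.62. Cenpv, whose human product binds centromeric heterochromatin, was the exception. It had signals of 92.3, 93.9 and 93.5 in MSC-1 cells, against 1515, 1962 and 2167 in primary Sertoli cells, a difference of -4.30 ± 0.14, with both groups above the array median.

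The mitotic kinase and checkpoint genes held 3 genes higher in MSC-1 cells and 2 higher in primary Sertoli cells. Aurkb, the kinase that corrects faulty spindle attachments, had signals of 528, 425 and 493 in MSC-1 cells, against 64.3, 58.9 and 56.4 in primary Sertoli cells, with a difference of 2.98 ± 0.14. Incenp, the scaffold that holds this kinase at centromeres, had signals of 104, 117 and 118 in MSC-1 cells, against 24.2, 24.1 and 20.1 in primary Sertoli cells, with a difference of 2.26 ± 0.21. Mad2l1, the checkpoint protein that delays anaphase, had signals of 1912, 1661 and 1690 in MSC-1 cells, against 352, 494 and 342 in primary Sertoli cells, with a difference of 2.16 ± 0.15. Relatives of Aurkb and Mad2l1 went the other way. Aurkc, the aurora kinase of meiosis, had signals of 6.99, 14.8 and 13.4 in MSC-1 cells, against 102, 148 and 158 in primary Sertoli cells, with a difference of -3.47 ± 0.33. Mad2l2, which serves in bypass of DNA lesions and in repair of breaks, had signals of 182, 183 and 158 in MSC-1 cells, against 1142, 1677 and 1742 in primary Sertoli cells, with a difference of -3.10 ± 0.17. In both genes the first primary array was the lowest of the 3.

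Kinesin and spindle genes were divided evenly, with 4 on each side. Kif11, the motor that pushes spindle poles apart, had signals of 545, 402 and 506 in MSC-1 cells, against 68.6, 81.5 and 69.3 in primary Sertoli cells, with a difference of 2.70 ± 0.16. Kif4, which rides on chromosome arms, Kif23, which is needed for cytokinesis, and the spindle pole gene Aspm were higher in MSC-1 cells too, by 1.83 to 2.67. The other kinesins were higher in primary Sertoli cells. Kif2a, which takes microtubule ends apart, had signals of 126, 115 and 103 in MSC-1 cells, against 709.8, 667 and 714 in primary Sertoli cells, with a difference of -2.60 ± 0.12. Its relative Kif2b had signals of 0.684, 1.38 and 1.39 in MSC-1 cells, against 85.2, 38.2 and 76.8 in primary Sertoli cells, with a difference of -4.91 ± 0.46. Kif2b read 1.39 or less on the MSC-1 arrays, while the probe set given for Kif2a stayed above 100 there. The second probe set of Kif2a read 59.08 to 75.75 on those arrays. Kif5c, a transport kinesin known from neurons, had signals of 5.85, 1.98 and 6.09 in MSC-1 cells, against 80.7, 101 and 122 in primary Sertoli cells, with a difference of -4.26 ± 0.41. Kif27, known for motile cilia in the mouse, had signals of 1.38, 2.35 and 6.11 in MSC-1 cells, against 178, 163 and 162 in primary Sertoli cells, with a difference of -5.45 ± 0.42. Its 3 primary values lay close together.

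**Figure D4:**
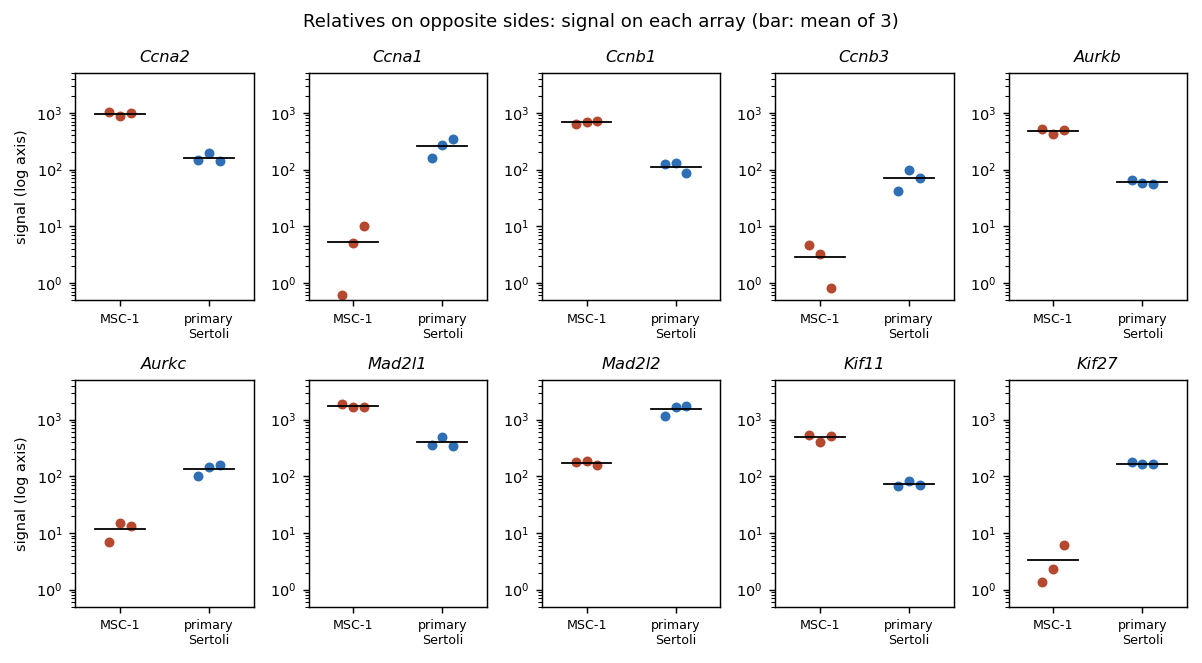
Array signal (vertical log axis) of genes of the same families on opposite sides, in MSC-1 cells (left) and primary Sertoli cells (right), with points for the 3 arrays and a bar at their mean. Ccna2, Ccnb1, Aurkb, Mad2l1 and Kif11 are higher in MSC-1 cells, and Ccna1, Ccnb3, Aurkc, Mad2l2 and Kif27 in primary Sertoli cells.

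These pairs of relatives were picked after their values were seen, and no test compares the relatives with each other. Of 36 germ cell markers, 18 were in the 4-fold table, all higher in primary Sertoli cells. Their summed signal was 229 to 328 in MSC-1 cells and 9265 to 12380 in primary Sertoli cells. On average most of the MSC-1 sum was Hspa2, with a mean of 171. The MSC-1 means of all the others were under the array median of 23.9. These 18 passed the same 4-fold selection as the genes described here, so a shared side is no evidence of a link. The direction of the markers outside the table is not known here, and the sums leave them out. Sycp1, Spo11 and Piwil1, which define meiotic cells, had mean signals of 3.52, 7.01 and 1.78 in MSC-1 cells, against 812, 560 and 757 in primary Sertoli cells. The lowest mean of the 18 in MSC-1 cells was 0.591 for Tdrd1. No signal on these arrays was 0, the lowest of any probe set being 0.0163, so a value above 0 is no sign of expression. Ccna1 is itself on that marker list. The first primary array had the lowest germ cell sum of its group and was the lowest of the 3 for 10 of the 16 genes (62.5%), beside 55.3% of all probe sets called higher in primary Sertoli cells. Whether germ cells in the primary preparation account for these genes was not tested.

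Genes of other marker lists were in the 4-fold table as well, and the sums given here cover only those genes. Of the Sertoli cell markers 12 of 27 were in the table, 4 higher in MSC-1 cells and 8 in primary Sertoli cells, with summed signals of 12310 to 12790 in MSC-1 cells and 14360 to 15970 in primary Sertoli cells. The 4 higher in MSC-1 cells were Trf, Vim, Ptgds and Gdnf, with means of 4116, 5975, 1435 and 363 in MSC-1 cells, against 433, 1255, 173 and 69.8 in primary Sertoli cells. Among the 8, Sox9, Clu and Slc2a3 had means of 34.8, 493 and 127.5 in MSC-1 cells, against 193, 4554 and 5118 in primary Sertoli cells. Vim and Trf thus made up most of the MSC-1 sum, and Slc2a3 and Clu most of the primary sum. The sums are near each other through different genes, so they do not show that the markers were at like levels. Cst12, Aard and Defb19, also of the 8, were under the array median in MSC-1 cells, with means of 13.9, 1.23 and 2.12 there, against 1623, 594 and 212 in primary Sertoli cells. Sox10, a defining gene of Schwann cells and melanocytes, averaged 1570 in MSC-1 cells, against 13.2 in primary Sertoli cells. Peritubular markers (9 of 13 in the table, 8 of them higher in primary Sertoli cells) summed to 2206 to 2880 in MSC-1 cells. In primary Sertoli cells they summed to 3797 to 7924, highest on the first primary array. The exception was Mylk, with a mean of 2210 in MSC-1 cells, against 390 in primary Sertoli cells. Mylk thus made up most of the MSC-1 sum, and the sums understate how far the other 8 differed. The 3 macrophage markers in the table and the Leydig cell marker Star were higher in primary Sertoli cells, and 8 of 13 Schwann cell and melanocyte markers were in the table, all higher in MSC-1 cells (sums of 7279 to 10710 in MSC-1 cells and 168.5 to 364 in primary Sertoli cells). None of 9 endothelial markers was in the table. The part of these cells in the results was not tested.

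All 5 condensin and cohesin genes among the 58 were higher in MSC-1 cells. Ncapg2, of condensin II, had signals of 1202, 1292 and 1557 in MSC-1 cells, against 176, 181 and 134 in primary Sertoli cells, with a difference of 3.04 ± 0.15. Ncaph2, of the same complex, had signals of 1049, 834 and 1013 in MSC-1 cells, against 187, 168 and 151 in primary Sertoli cells, with a difference of 2.51 ± 0.13. Both complexes fold chromosomes for mitosis. Ncaph, of condensin I, had signals of 1122, 1063 and 1188 in MSC-1 cells, against 206, 236 and 181 in primary Sertoli cells, with a difference of 2.44 ± 0.13. Cdca5, which protects cohesion between sister chromatids, had signals of 673, 686 and 680.3 in MSC-1 cells, against 143, 183 and 141 in primary Sertoli cells, with a difference of 2.13 ± 0.13. Ncapg, also of condensin I, differed by 2.11 ± 0.39. It had the narrowest gap of the 58 genes, as its lowest MSC-1 value was 2.28 times its highest primary value.

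Of the repair genes, Brca1, which acts in repair of breaks by homologous recombination, had signals of 639, 556 and 635 in MSC-1 cells, against 69.5, 88.3 and 59.7 in primary Sertoli cells. The difference was 3.07 ± 0.16, and its 3 probe sets lay on the same side. Fancb, of the Fanconi core complex that deals with crosslinks, had signals of 91.7, 63.2 and 82 in MSC-1 cells, against 16.4, 12.9 and 15.3 in primary Sertoli cells, with a difference of 2.32 ± 0.27. Both genes were above the array median in MSC-1 cells and Fancb was below it on every primary array.

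The 8 genes in none of the lists were higher in primary Sertoli cells with the exception of Cdca7l, which differed by 2.99 ± 0.14. The Cdkl genes code for kinases named for their likeness to cyclin-dependent kinases. Cdkl2 had signals of 150.3, 174 and 141 in MSC-1 cells, against 627, 743 and 644 in primary Sertoli cells, with a difference of -2.11 ± 0.13. Cdkl3 had signals of 10.8, 18.2 and 13.2 in MSC-1 cells, against 384, 426 and 398 in primary Sertoli cells, with a difference of -4.77 ± 0.22. Cdkl4 had signals of 5.78, 7.33 and 0.945 in MSC-1 cells, against 176, 161 and 203 in primary Sertoli cells, with a difference of -5.23 ± 0.51. Cdkl3 and Cdkl4 were under the array median on every MSC-1 array, whereas Cdkl2 was above it in both groups. Ccnb1ip1, which is needed for crossovers in mouse meiosis, had signals of 7.67, 2.58 and 7.12 in MSC-1 cells, against 158, 239.8 and 146 in primary Sertoli cells, with a difference of -4.82 ± 0.39. Amn1, named for a yeast gene that restrains exit from mitosis, had signals of 250.3, 185 and 194 in MSC-1 cells, against 876, 1330 and 1372 in primary Sertoli cells, with a difference of -2.49 ± 0.19. Dis3l, a nuclease of the RNA exosome with a title that holds the word mitotic, had signals of 71.2, 80 and 72.3 in MSC-1 cells, against 472, 599 and 701 in primary Sertoli cells, with a difference of -2.95 ± 0.16. Ptgis had signals of 7.3, 3.86 and 2.79 in MSC-1 cells, against 364, 307 and 221 in primary Sertoli cells, with a difference of -5.77 ± 0.35. Its signal was highest on the first primary array.

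The MSC-1 signals of the genes of the primary side were low, with a mean under the array median for 10 of the 16. With 16 in place of 1 added to each signal before the log, the median of the 16 genes was -2.86 and that of the 42 genes 2.35. With 64 added these medians were -1.96 and 1.95. No gene changed side under either setting. With 16 added, the difference of 7 of the 16 genes shrank by over 1.5 times. These were Ccna1 at -3.68, Ccnb3 at -2.13, Ccnb1ip1 at -3.16, Cdkl4 at -3.25, Kif27 at -3.26, Kif5c at -2.50 and Kif2b at -2.22, and with 64 added they ranged from -2.20 for Ccna1 to -0.98 for Ccnb3. Aurkc, Cdkl3 and Ptgis, which also had MSC-1 means under the array median, had -2.45, -3.80 and -3.90 with 16 added and -1.39, -2.58 and -2.38 with 64. The size of the difference of all 10 genes with such low means thus depends on this choice. The same limit concerns 5 of the 42 genes, whose primary mean was under the primary array median of 29.5. Of these, Cdc25c had 2.16 with 16 added and 1.23 with 64, Fancb 1.61 and 0.85, and Incenp 1.73 and 1.03. The others were Cenpe and Ncapg.

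Where a gene had several probe sets they lay on 1 side. This held for all 20 such genes, 18 of the MSC-1 side and 2 of the primary side, with 43 probe sets between them, all of them past the 4-fold selection. The median gap between the largest and the smallest difference of a gene was 0.26, and 3 genes had a gap over 1. The widest was that of Cdc25c at 1.77. From the means of the signals, 3 of the 42 genes differed by less than 4-fold in the arrays, and the range of the 42 was 3.50-fold to 20.8-fold. Over the whole table the fold of the mean signals was 1.25 times the authors' deposited fold in the median. How the authors computed their folds is not known here.

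Beyond the 58, 12 lists of 442 genes of the same machinery were matched to the 4-fold table by symbol, since the title rule takes only some of their genes. The table held 68 further genes of these lists, 61 higher in MSC-1 cells and 7 in primary Sertoli cells. Of all 2295 genes in the table, 38.0% were higher in MSC-1 cells. All 68 passed an adjusted p of 0.05 in limma, beside 21.2% of all probe sets called higher in MSC-1 cells and 19.1% called lower. These genes too were selected at 4-fold on these same arrays, so that they passed is no evidence about them. With the 50 of the 58 genes that are on the lists, 102 were higher in MSC-1 cells and 16 in primary Sertoli cells. The median difference was 2.27. A list gene that is not in the table may have differed by less than 4-fold, so the share of a list in the table says nothing of its other genes.

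The lists of origin licensing (12 of 32 genes in the table), polymerases and fork (15 of 40), deoxynucleotide supply (5 of 11), anaphase-promoting complex (2 of 23), homologous recombination (7 of 41) and E2F factors (6 of 21) had all their tabled genes higher in MSC-1 cells. Tk1, the thymidine kinase of S phase, averaged 595 ± 60.7 in MSC-1 cells and 45.7 ± 13.9 in primary Sertoli cells (SD, n = 3), a difference of 3.71 ± 0.21. Tyms, which makes thymidylate, averaged 165 ± 47 in MSC-1 cells and 19.2 ± 2.27 in primary Sertoli cells (SD, n = 3), a difference of 3.01 ± 0.25. Dscc1, a subunit of an alternative clamp loader, averaged 473 ± 41.5 in MSC-1 cells and 26 ± 7.93 in primary Sertoli cells (SD, n = 3), a difference of 4.17 ± 0.21. These are genes of the same S phase work as Pola1 and Rfc5. Chaf1b, which lays histones on new DNA, differed by 2.85 ± 0.13, the helicase gene Recql4 by 2.40 ± 0.20 and the origin factor gene Gins3 by 1.60 ± 0.22. Ube2c, which works with the anaphase-promoting complex, differed by 3.43 ± 0.18 and Fbxo5, an inhibitor of that complex, by 2.87 ± 0.14. Among recombination genes Rad51b differed by 4.67 ± 0.42 and Rad54b by 4.23 ± 0.52, with primary means of 2.36 and 23.1. Of the 61 further list genes higher in MSC-1 cells, 10 had a primary mean under the median of 29.5 there, namely Rad51b, Rad54b, Tyms, Dscc1, Recql4, Gins3, E2f2, Dut, Brcc3 and Haus5. Of the 7 higher in primary Sertoli cells, Smc1b and Mlh3 had an MSC-1 mean under the median of 23.9. For these genes the size of the difference is uncertain.

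In the E2F list the proliferation marker gene Mki67 averaged 2191 ± 214 in MSC-1 cells and 241 ± 46.2 in primary Sertoli cells (SD, n = 3), a difference of 3.19 ± 0.15. Mybl2, a factor of the complex that reads CHR elements, differed by 2.04 ± 0.20. The factor genes E2f1, E2f2 and E2f7 of the same list were on the MSC-1 side as well, with differences of 1.92 ± 0.17, 2.02 ± 0.31 and 1.84 ± 0.17. They were named after their values were seen, because their binding letters are shown above.

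In the remaining lists some genes were higher in primary Sertoli cells. Smc1b, the cohesin subunit of meiosis, averaged 1.51 ± 0.938 in MSC-1 cells and 569 ± 56.2 in primary Sertoli cells (SD, n = 3), a log2 difference of -7.89 ± 0.31 that rests on an MSC-1 signal under the array median and has no settled size. It is also a germ cell marker here. Stag1, a cohesin subunit of somatic cells, differed by -2.46 ± 0.22. Its MSC-1 signals of 24, 20.3 and 28.3 lay around the array median of 23.9, so the size of this difference is uncertain. The relative Stag2 differed by 2.40 ± 0.11 and the cohesin ring gene Rad21 by 2.42 ± 0.12. Haspin, a histone kinase first known from germ cells, averaged 90.9 ± 8.03 in MSC-1 cells and 1349 ± 473 in primary Sertoli cells (SD, n = 3), a difference of -3.82 ± 0.24. On the other side of the mitotic kinase list were Melk at 2.88 ± 0.19 and Mastl at 2.48 ± 0.16. In the list of other repair and checkpoint genes, 8 were higher in MSC-1 cells and 4 in primary Sertoli cells.

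Checkpoint genes of that list lay on both sides. Atr, the kinase that senses stalled forks, averaged 207 ± 21.3 in MSC-1 cells and 2287 ± 312 in primary Sertoli cells (SD, n = 3), a difference of -3.45 ± 0.13. Chek2, a kinase of the response to breaks, averaged 303 ± 3.37 in MSC-1 cells and 41.5 ± 5.72 in primary Sertoli cells (SD, n = 3), a difference of 2.85 ± 0.16. Chek1, the kinase that Atr activates, differed by 1.86 ± 0.18, on the side opposite to Atr; it was named after its value was seen. Mlh3, a mismatch repair gene needed for meiotic crossovers in the mouse, differed by -3.10 ± 0.19, and Neil3, a DNA glycosylase, by 2.57 ± 0.24. The spindle list added 9 genes, all higher in MSC-1 cells, led by Hmmr at 2.87 ± 0.17 and Nde1 at 2.74 ± 0.16. The centromere list added 7, led by Hjurp, the chaperone that places the Cenpa protein, at 2.42 ± 0.16. The cyclin list added Skp2, which marks a brake on the cyclin-dependent kinases for removal, at 2.73 ± 0.13 and Cks1b at 2.27 ± 0.17.

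**Figure D5:**
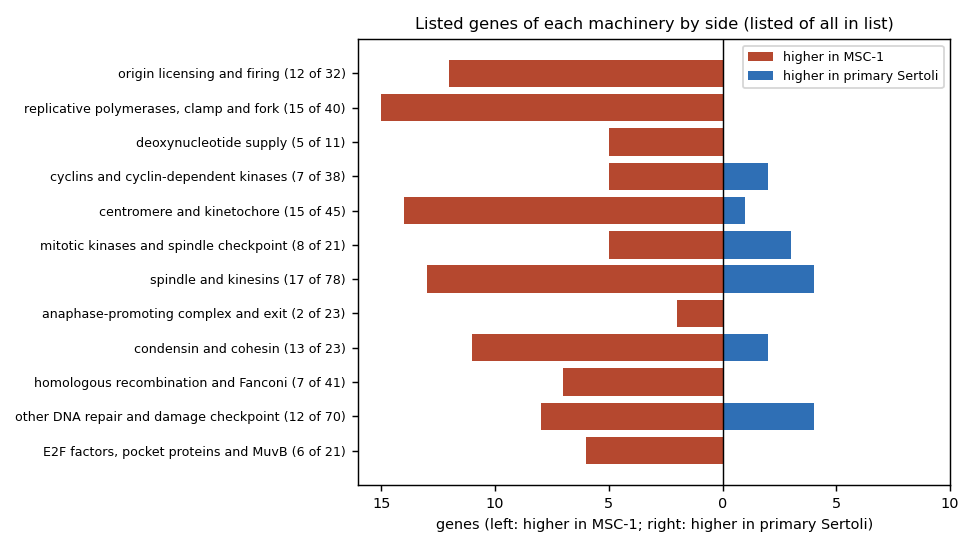
Number of genes of each list that are in the 4-fold table and higher in MSC-1 cells (bars to the left) or in primary Sertoli cells (bars to the right), with the number in the table and in the list beside each name. Primary bars appear for 6 lists, with 4 genes each for kinesins and for other repair.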

How the data were processed

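RNA from 3 MSC-1 and 3 primary Sertoli samples was put on Affymetrix arrays from 10 ug of total RNA, per the labels' protocols. The deposited intensity values are linear signals, 1 per probe set and array. GCOS appears, without a version, among the tools of the submitters' processing notes. The scaling of the signals was not given in the sources used here, and no detection calls were used. The authors' deposited 4-fold table gives signed folds with gene symbols and titles, and it is the only source of gene names, so tests outside it name no gene. Symbols were updated through RefSeq names of GRCm38.p6 (55 of the 58 were current, 2 differed in letter case, 1 was a synonym).

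After 64 control probe sets were left out, log2(signal + 1) of 45037 probe sets was fitted with limma 3.58.1 in R 4.3.3 (lmFit, eBayes with trend, two-sided, Benjamini-Hochberg over all probe sets). No filter on low values was used. The fit was tested on simulated data. Each gene took its probe set with the highest mean level. Alternatives were other pseudocounts, quantile and median scaling, a filter, no trend, a replicate block, leaving out each array, and other probe set rules. The number of arrays limits the precision.

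The genes and lists were chosen with earlier results of these data known. Named among the 58 are the 4 largest differences per role, every gene higher in primary Sertoli cells and genes with probe sets on both sides (none was found), and of the other list genes the 2 largest per list and side, of which some are not reported here. Ccna2, Mad2l1, Ncapg, Cdca7l, E2f1, E2f2, E2f7, Chek1, Dut, Brcc3 and Haus5 were added after their values were seen, and so were the genes given only as part of a range. The lists had been planned over all probe sets, but with names only from the 4-fold table they cover only its genes.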

Additional observations from a re-analysis of the deposited data

How the results depend on the processing

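The counts of 42 and 16 among the 58 genes, and of 61 and 7 among the further list genes, were the same under every alternative run. For the 38 named genes, 608 of 608 values kept their direction and their side of the adjusted p of 0.05 in limma. All these genes were selected at 4-fold on these same arrays, so this stability was close to fixed in advance and is no evidence about them. The median difference over the 58 genes was 2.57 with median centring, 2.14 with 16 and 1.77 with 64 added to the signals, against 2.32, and 2.26 to 2.43 when 1 array was left out. Median centring moves all differences by the same amount, to a median of 0.29 over all probe sets, and 64.4% of called probe sets were then higher in MSC-1 cells, against 52.6%. The E2F share of the MSC-1 side was 17.1% in the 250 bases before the start, against 34.3% with the 50 bases after it. Same-numbered arrays' deviations from their group means correlated at -0.02, -0.03 and 0.00, so no sign of pairing by replicate number was seen. This cannot tell whether the samples were paired. The replicate block gave 8914 probe sets higher and 8126 lower in MSC-1 cells, against 9568 and 8620 without it, and kept the counts of 42 and 16. Without detection calls, signals under the array median cannot be told from background here, which concerns the MSC-1 level of 10 of the 16 genes and the primary level of 5 of the 42, and among the further list genes the primary level of 10 of 61 and the MSC-1 level of 2 of 7.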

Other observations

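The second MSC-1 array was the lowest of its group for 30 of the 42 genes higher in MSC-1 cells, and the third primary array was the lowest of its group for 26 of them. These are 71.4% and 61.9% of the 42 genes. Over all probe sets called higher in MSC-1 cells, the same arrays were the lowest for 38.7% and 35.9%, and over all probe sets for 35.6% and 29.3%. The difference between these shares was not tested.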
